A study of Mus musculus with 18 samples.

Results

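The genes described here encode 10 AP-1 and ATF transcription factors: Fos, Fosb, Fosl1 and Fosl2 of the Fos subfamily, Jun, Junb and Jund of the Jun subfamily, and Batf, Batf3 and Atf3. They were chosen by name, as 10 of 21938 protein-coding genes of GENCODE release M21. For each gene, the catalog of open chromatin was read in the gene body and within 50 kb of the most upstream annotated start site, a stretch called the window below. The 10 windows held 137 of 59617 extended regions, 241 of 82391 reference peaks and 249 of 84660 summits.

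AP-1 is a dimer of basic leucine zipper (bZIP) proteins, in which a Fos protein pairs with a Jun protein or Jun proteins pair with each other, and which binds the sequence TGACTCA. In macrophages, Toll-like receptors activate MAP kinases, which act on the promoters of Fos, Jun and their relatives and on the proteins themselves, so that many of these genes are known as immediate early genes. Batf and Batf3 lack a transactivation domain of the Fos kind and pair with Jun proteins, often beside IRF factors, and Atf3 is a stress-induced factor that also binds the related cAMP response element (CRE).

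Chromatin accessibility was measured by ATAC-seq, in which the Tn5 transposase inserts adapters into exposed DNA, in bone marrow-derived macrophages (BMDMs) differentiated in culture from precursors of wild type mice. There were 9 groups of 2 libraries: untreated cells, and cells stimulated for 0.5, 1, 2 or 4 h with 10 ng/mL of either IL-4, a cytokine, or lipopolysaccharide (LPS), which bacteria carry and Toll-like receptor 4 senses. All cells, the untreated ones included, first received DMSO, the vehicle, for 1 h. The lists were pooled over all 18 libraries and carried no column per library, so that no level per stimulus, time point or replicate, and no depth, was analysed here.

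A reference peak is a stretch of open chromatin, a summit is the position of highest signal within it, and an extended region is a peak widened on both sides and joined with its neighbours. Each summit carried a score of unstated scale, which ran from 102 to 2781 with a median of 737 and took only 219 distinct values, so that ties are common. A high score in the pooled list does not say in which cells the site was open. As a check of the cell type, 10 of 10 macrophage marker genes (among them Csf1r, Cd14 and Adgre1) had a peak within 1000 bp of a start site. This was also the case for 2 of 2 dendritic cell markers, 2 of 3 fibroblast markers, 1 of 4 T cell markers, 1 of 3 B cell markers and 0 of 3 neutrophil markers.

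Most of the genes were open at their own start. A reference peak lay within 1000 bp of an annotated start site of 9 of the 10 genes (90%, 95% Wilson interval 59.6 to 98.2, counting error only), against 56.5% of all protein-coding genes. Batf was the exception. The windows were also rich in open regions, with 8 to 22 extended regions per gene and a median of 13, compared with a median of 5 and an interquartile range of 1 to 8 over all protein-coding genes. All 10 genes had 8 or more regions, against 30.5% of protein-coding genes. The limit of 8 regions was set after the values were seen. The best summit at an own start site had a median score of 1838 over the 9 genes, compared with 1456 over all genes with such a summit (interquartile range 1071 to 1799).

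**Figure D1:**
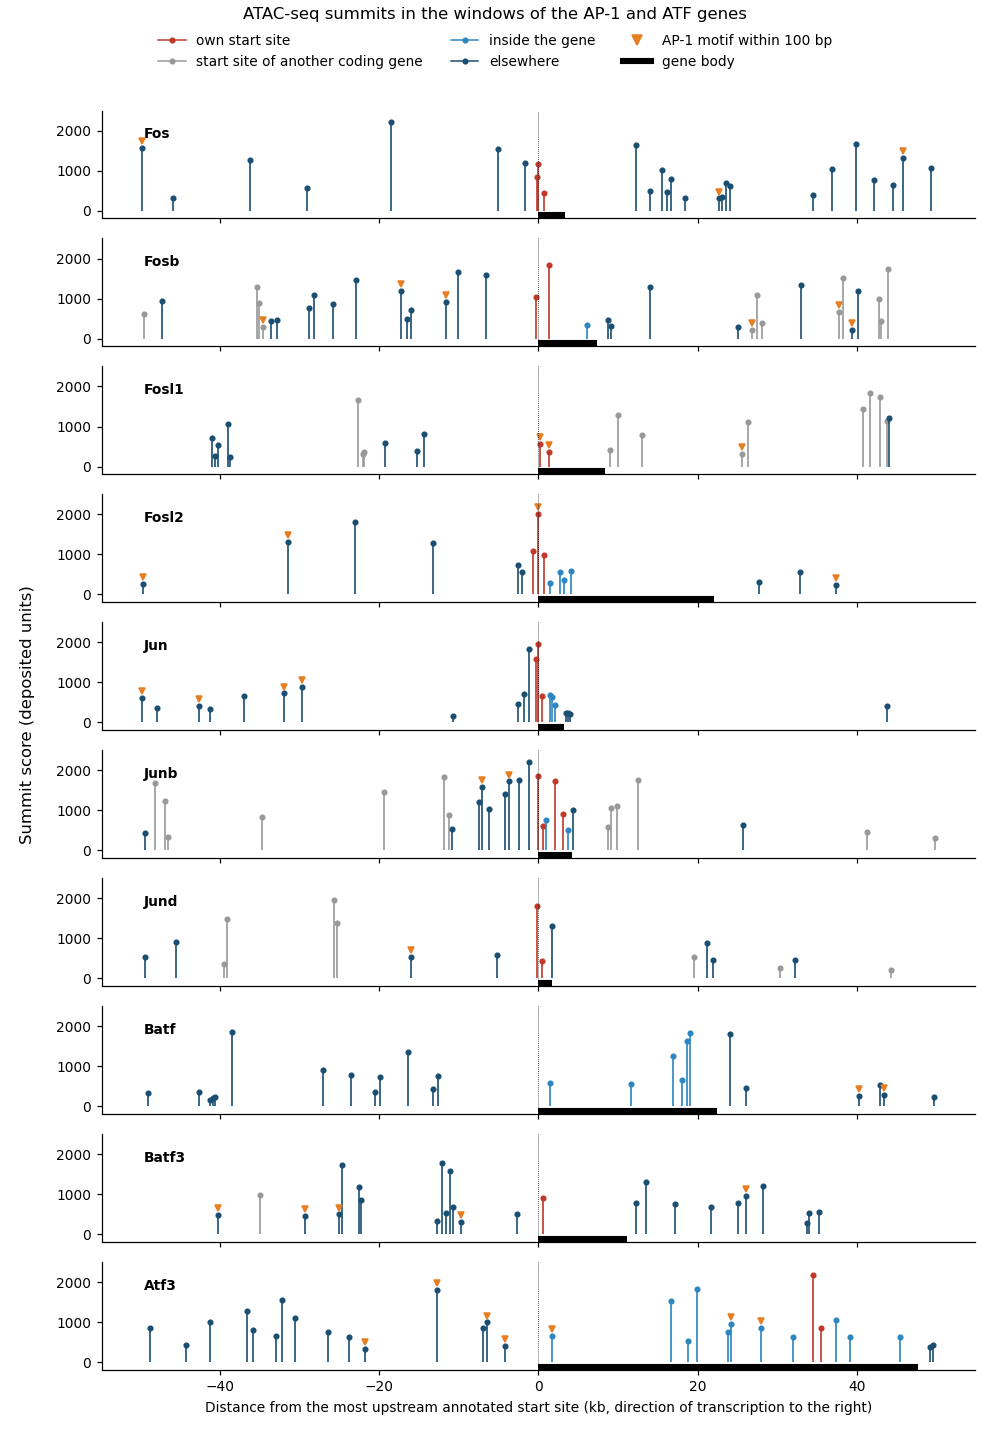
Scores (vertical axis, deposited units) of all 249 summits by distance from the most upstream start site of each gene (horizontal axis, kb). Red lines are summits within 1000 bp of a start site of the gene, grey lines summits at starts of other coding genes, light and dark blue lines the remaining summits inside and outside the gene, orange triangles an AP-1 motif within 100 bp and black bars the gene body. No Batf summit is red, and the 2 red summits of Atf3 lie 34551 and 35488 bp downstream of its most upstream start.

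The sequences at the starts were read first, because promoters of immediate early genes are known for CRE sites. RefSeq promoters, from 250 bases before to 50 after the start on GRCm38.p6, were found for 9 of the 10 genes (Fosl1 was not among them). The full CRE TGACGTCA was present in 0 of these 9 promoters and in 1.79% of 32851 promoters, searched on both strands. The shorter core TGACG of the CRE, added after the data were seen and contained in the full CRE, was present in 5 of 9 (Fos, Fosb, Junb, Batf and Atf3), against 20.8% of all promoters. This core holds a CpG dinucleotide, in which these promoters were rich (below), and no share among CpG-rich promoters was taken. TGACATCA, the form of the site known from the promoter of Jun itself and also added after the data were seen, was found at Jun alone among the 9, against 3.62% of all promoters. TGACTCA was present in 0 of 9, against 5.2%. The promoters of Fos, Jun, Atf3 and Batf are shown on the strand of the gene to set an open start with CRE cores, an open start with the Jun form, an internal start and a start without a peak beside each other, with these sites in capitals.
Fos, plus strand, chr12:85473640-85473939: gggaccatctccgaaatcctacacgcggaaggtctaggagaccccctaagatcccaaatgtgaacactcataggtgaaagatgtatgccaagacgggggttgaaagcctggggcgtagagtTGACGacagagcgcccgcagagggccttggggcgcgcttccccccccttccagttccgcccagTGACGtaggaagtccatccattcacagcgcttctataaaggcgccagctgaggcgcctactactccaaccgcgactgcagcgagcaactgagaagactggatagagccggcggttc
Jun, minus strand, chr4:95052173-95052472: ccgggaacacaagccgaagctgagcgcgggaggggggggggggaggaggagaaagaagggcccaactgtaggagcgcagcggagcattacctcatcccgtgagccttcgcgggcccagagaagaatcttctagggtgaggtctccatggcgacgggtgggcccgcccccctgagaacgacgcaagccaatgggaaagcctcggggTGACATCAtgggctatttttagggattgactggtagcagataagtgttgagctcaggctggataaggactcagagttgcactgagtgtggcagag
Atf3, minus strand, chr1:191183284-191183583: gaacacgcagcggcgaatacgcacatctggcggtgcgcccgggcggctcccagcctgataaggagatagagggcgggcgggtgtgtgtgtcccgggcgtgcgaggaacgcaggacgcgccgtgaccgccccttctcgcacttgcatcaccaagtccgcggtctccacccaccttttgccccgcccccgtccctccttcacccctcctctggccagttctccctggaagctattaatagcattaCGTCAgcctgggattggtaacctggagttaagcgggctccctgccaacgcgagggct
Batf, plus strand, chr12:85686470-85686769: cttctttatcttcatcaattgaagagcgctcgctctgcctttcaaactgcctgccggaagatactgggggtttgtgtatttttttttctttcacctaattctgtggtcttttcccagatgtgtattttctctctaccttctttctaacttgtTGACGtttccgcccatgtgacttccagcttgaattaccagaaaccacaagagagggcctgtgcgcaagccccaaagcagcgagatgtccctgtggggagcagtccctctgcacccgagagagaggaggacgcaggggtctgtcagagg

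In Fos, the CRE cores begin 129 and 66 bp upstream of the RefSeq start. In Jun, the capitals begin 45 bp upstream. The CRE cores of Atf3 (as the reverse complement CGTCA) and Batf begin 7 and 98 bp upstream of their RefSeq starts. The promoters were also rich in CpG dinucleotides, with a median observed over expected ratio of 0.735 over the 9 genes against 0.384 over all promoters, and a ratio of at least 0.6 in 6 of 9 against 35.8%. The lowest ratio was 0.184 at Jund, whose RefSeq start lies 1210 bp upstream of the GENCODE start. When 1000 bp before and 100 bp after the most upstream GENCODE start were searched instead, the full CRE was found at Jund, 214 bp upstream, and at Batf, 661 bp upstream, 2 of 10 genes against 3.09% of all 21938 protein-coding genes. The bases before the GENCODE start of Jund are shown for this reason, with the CRE in capitals.
Jund, plus strand, chr8:70698699-70698948: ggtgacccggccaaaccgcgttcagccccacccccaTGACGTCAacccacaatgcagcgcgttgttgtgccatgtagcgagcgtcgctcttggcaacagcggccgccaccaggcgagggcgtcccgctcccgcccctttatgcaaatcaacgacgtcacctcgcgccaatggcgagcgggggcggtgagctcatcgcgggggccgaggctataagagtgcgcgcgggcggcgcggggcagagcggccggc

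The Fos subfamily was open at the start in 4 of 4 genes but its scores differed widely. Fos (chr12:85473890-85477273, 4 exons), the founding immediate early gene, had 3 own start summits with scores of 845, 1164 and 439. The highest lay 15 bp downstream of the start, in the 5′ noncoding part of the first exon, and stood at the 31st percentile of protein-coding genes with a start site summit. The strongest summit of the window lay elsewhere, 18515 bp upstream, with a score of 2206 (99.6th percentile of all summits) in a reference peak of 643 bp. It held none of the 8 motifs searched here within 100 bp. Further summits scored 1543 at 5055 bp upstream, 1644 at 12227 bp downstream and 1657 at 39926 bp downstream. With 17 extended regions (98.1st percentile of protein-coding genes) and no other coding start in the window, 24 of its 27 summits were distal, meaning over 1000 bp from any protein-coding start site.

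Fosb (chr7:19302696-19310051), a close relative of Fos, had a score of 1838 at a summit 889 bp downstream of the nearest annotated start and 1036 at the summit 332 bp upstream of the most upstream start. Within 500 bp of a start only the weaker of them counts. Its window held 18 extended regions (98.5th percentile) but also the starts of 6 other coding genes, Vasp and Ercc1 among them, and 12 of its 35 summits lay at those. Upstream, before the start of Ercc1, the highest summits lay at 6537 bp (score 1594), 10103 bp (1670) and 22917 bp (1456). The last of these was nearer to the start of Ercc1, 11810 bp away, than to Fosb.

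Fosl1 (chr19:5447547-5455946), which encodes Fra-1, had the weakest start of the 9 genes, with own start summits of 573 and 367 (the higher at the 5.2nd percentile of genes). Of its 23 summits, 12 lay at the starts of other coding genes, the highest a score of 1838 near Mus81. Its own 9 distal summits scored 242 to 1212, and the highest of them lay in an intron of Cfl1, 44045 bp downstream. Fosl2 (chr5:32135801-32157842), which encodes Fra-2, was the opposite, with a score of 2021 at 40 bp upstream of its start (89.1st percentile) and no other coding start in the window. It had the fewest extended regions, 8, but 9 of its 16 summits were packed into a single region of 8323 bp around the start. Such density was rare, since 0.129% of extended regions held 9 or more summits, whereas the median region held 1. The median score in this region, 583, was below that of all summits, 737.

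The Jun subfamily had strong starts in 3 of 3 genes, each a gene whose coding transcript is a single exon. Jun (chr4:95049034-95052222) had scores of 1969, 1581 and 664 at its own start, the highest 50 bp upstream (86.2nd percentile). These belonged to a region of 8269 bp with 12 summits, which lay from 3941 bp downstream to 2603 bp upstream and so on both sides of the gene. Only 0.0486% of extended regions held as many. The median score in this region, 644, was below that of all summits, 737. Outside the region the window was weak. The highest summit over 2500 bp from any coding start scored 878, at 29644 bp upstream, and the single summit downstream of that region, 43849 bp away, scored 411.

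Junb (chr8:84974484-84978718), known as an early target of both LPS and IL-4 signalling, had several high summits close to its start. Its start summit scored 1864 at 100 bp upstream, and further summits scored 2206 at 1189 bp, 1747 at 2400 bp, 1721 at 3627 bp and 1406 at 4143 bp upstream. They lay in a region of 10109 bp with 11 summits, whose median score of 1406 was above the upper quartile of all summits, 1153. Another own start summit, at 2082 bp downstream and 94 bp from the start of a noncoding Junb transcript, scored 1734. The neighbourhood was crowded, with 9 other coding genes (Prdx2, Rnaseh2a and Hook2 among them) and 13 of 30 summits at their starts.

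Jund (chr8:70698949-70700616), the Jun gene known for steady expression, had a start summit of 1812 at 110 bp upstream. Its remaining own start summit scored 430, and its best distal summit, 1740 bp downstream of the start, scored 1296. Over 2500 bp from any coding start the highest score was 573. The highest score in the window, 1955, was at the start of Lsm4, a neighbouring gene. The 3 Jun genes thus had 10 to 12 extended regions each, between the 83.3rd and 90.9th percentiles.

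**Figure D2:**
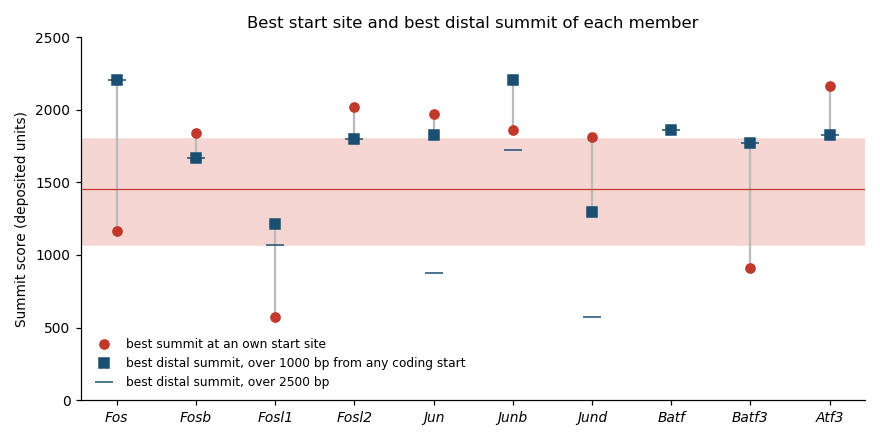
Score of the best own start summit (red circles) and of the best distal summit (blue squares, over 1000 bp from any coding start; dashes, over 2500 bp) of each gene. The red line and band give the median of 1456 and the interquartile range of 1071 to 1799 of the best start summit over all genes. Fos, Fosl1, Junb and Batf3 have the square above the circle, and Batf has no circle.

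Batf, Batf3 and Atf3 had 23 to 28 distal summits each, and a peak within 1000 bp of the most upstream start at Batf3 alone. Batf (chr12:85686669-85709087, 3 exons) had no peak within 1000 bp of a start site, the nearest lying 1142 bp from one, with a summit score of 573. Its strong summits were an upstream one with a score of 1864 at 38513 bp, and a downstream group with 1632 and 1825 in an intron at 18665 and 19037 bp and 1812 at 24134 bp, past the end of the gene. All 25 summits were distal. The 16 extended regions placed Batf at the 97.5th percentile of protein-coding genes. The summit farthest upstream lay in an intron of Jdp2, another bZIP gene.

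Batf3 (chr1:191097847-191108945), a factor known for its role in cross-presenting dendritic cells, had 1 own start summit, with a score of 911 (17.2nd percentile of genes). Its best summits lay 24658 and 12092 bp upstream, with scores of 1734 and 1773, inside the neighbouring gene Nsl1. Downstream the scores ran from 282 to 1308.

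Atf3 (chr1:191170296-191218039), known as an early LPS target that restrains inflammatory genes, had the most extended regions of the 10 genes, 22 (99.3rd percentile), with no other coding start in the window. Its most upstream start had no peak within 1000 bp, the nearest being 1689 bp away. The open start was an internal one, where a summit 148 bp upstream of the nearest annotated start scored 2166, the highest own start value of the 10 genes (95.7th percentile). This start is the one of the RefSeq promoter shown above, 34706 bp downstream of the most upstream start. Between both starts lay summits of 1531 and 1825, and upstream of the gene of 1812 (12712 bp) and 1556 (32154 bp).

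**Figure D3:**
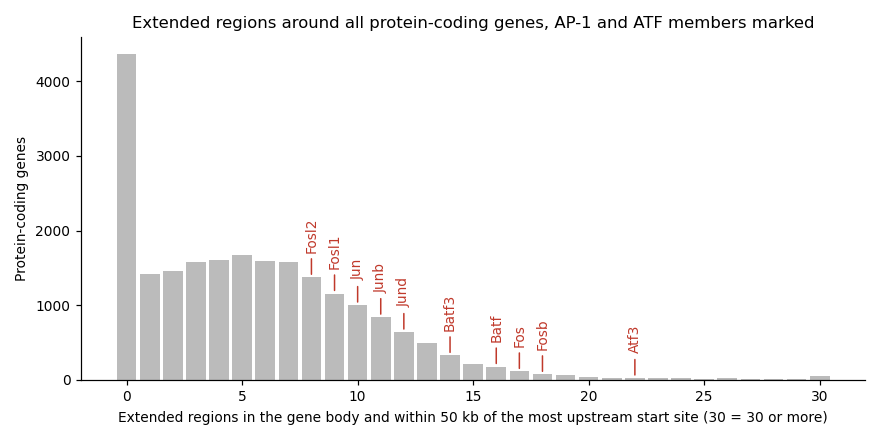
Number of protein-coding genes (vertical axis) by the number of extended regions in the gene body and within 50 kb of the most upstream start (horizontal axis, last bar 30 or more). The 10 genes run from 8 regions at Fosl2 to 22 at Atf3, to the right of the median of 5.

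Distal sites were compared with starts next. The best distal summit scored higher than the best start summit in 4 of 9 genes (Fos, Fosl1, Junb and Batf3), against 38.4% of 12321 protein-coding genes with a start summit, and 53% of those with 8 or more regions. With distal sites over 2500 bp from any coding start it was 3 of 9, without Junb, against 33.9% of all these genes and 47.6% of those with 8 or more regions. The 182 distal summits had a median score of 670 (interquartile range 448 to 1088), next to 675 (458 to 1013) for all 62911 distal summits. A score in the upper quartile of all summits was reached by 24.2% of them, against 19% of all distal summits. At least 1 such distal summit was present in 10 of the 10 windows, against 42.1% of all protein-coding genes and 81.4% of those with 8 or more regions. Fos had 8, Fosb 7, and Junb, Batf and Batf3 6 each, followed by Atf3 with 5 and Fosl2 with 3, while Fosl1, Jun and Jund had 1 each. Over 2500 bp from any coding start, the best summits of Fosl1, Jun and Jund scored 1071, 878 and 573, below the upper quartile of 1153. Those of the other genes stayed above it, and no share over all genes was taken at this distance. The placement of distal summits differed, in that 130 of 182 (71.4%) lay outside coding genes and 35 (19.2%) in introns, against 45.1% and 50.5% of all distal summits. The gene bodies measured from 1668 bp at Jund to 47744 bp at Atf3, less than the 50 kb taken on each side of the start. Space outside the genes is thus built into the windows, to which the catalog shares were not limited. Of all 249 summits, 22 lay at an own start, 45 at the start of another coding gene, 27 elsewhere inside the gene and 155 elsewhere in the window.

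The product of these genes binds TGACTCA, so that motif was sought at their own open sites. It lay wholly within 100 bp of 37 of 249 summits (14.9%, 95% Wilson interval 11 to 19.8), against 15.9% of all summits. At distal summits the count was 30 of 182 (16.5%, 11.8 to 22.6), against 19.2%. The interval of the members includes the catalog value in both cases, so that no difference was detectable with this number of summits. By count Atf3 had the most, with 7 of 28 distal summits (25%, 12.7 to 43.4), followed by Batf3 with 5 of 23 and Jun with 4 of 18. Fos, Fosb and Fosl2 had 3 each, Junb and Batf 2 each and Jund 1. By share Fosl2, with 3 of 13 (23.1%), stood above Jun (22.2%) and Batf3 (21.7%). Fosl1 had it at 0 of 9 distal summits (upper limit of the interval 29.9%), but at both of its own start summits. The intervals of single genes overlap throughout. Distal summits with the motif had a median score of 628 in the windows (n = 30), with an interquartile range of 350 to 982, next to 675 (456 to 1097) for those without it (n = 152), and the ranges overlapped widely. Over the whole catalog the medians were 737 and 664. These differences were not tested.

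At an own start the motif was found at 3 of 22 summits, 1 of Fosl2 and 2 of Fosl1. Over all 67 summits within 1000 bp of a coding start in the windows, those of other genes included, it was 7 (10.4%, 5.15 to 20), against 6.55% of all such summits. It lies in the first exon in the sites below, 93 bp downstream of the summit with a score of 2021 at Fosl2 and 74 bp downstream of the summit with a score of 573 at Fosl1. The Fosl1 site lies between its summit and an annotated start 98 bp downstream of that summit. Its exon is thus that of a transcript that starts further upstream. Only the site with its flanks is shown, with the motif, or its reverse complement TGAGTCA, in capitals.
Fosl2, plus strand, chr5:32135832-32135861: agttgaactcgtgccattgtagTGACTCAt
Fosl1, plus strand, chr19:5447886-5447915: agaggcgcgagTGAGTCAgaaccgcagccg

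The 3 distal summits with the motif and the highest scores were those of Atf3 at 12712 bp upstream (score 1812) and of Junb at 3627 and 7067 bp upstream (1721 and 1581). They are given as 201 bases around the summit on the strand of the gene, with the motif in capitals. The Junb site further upstream holds it at 2 places.
Atf3, minus strand, chr1:191230651-191230851: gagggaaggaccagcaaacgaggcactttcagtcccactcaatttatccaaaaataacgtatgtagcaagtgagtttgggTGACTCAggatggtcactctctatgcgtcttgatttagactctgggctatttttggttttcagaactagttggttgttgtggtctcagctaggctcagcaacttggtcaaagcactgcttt
Junb nearer site, minus strand, chr8:84982245-84982445: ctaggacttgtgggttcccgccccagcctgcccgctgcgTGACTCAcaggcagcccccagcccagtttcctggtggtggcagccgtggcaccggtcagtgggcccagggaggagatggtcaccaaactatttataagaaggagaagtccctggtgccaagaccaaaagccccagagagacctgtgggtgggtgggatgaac
Junb further site, minus strand, chr8:84985685-84985885: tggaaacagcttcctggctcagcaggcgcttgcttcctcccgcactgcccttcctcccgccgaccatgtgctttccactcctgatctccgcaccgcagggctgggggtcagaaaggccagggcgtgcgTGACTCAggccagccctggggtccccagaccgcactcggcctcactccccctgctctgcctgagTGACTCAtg

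**Figure D4:**
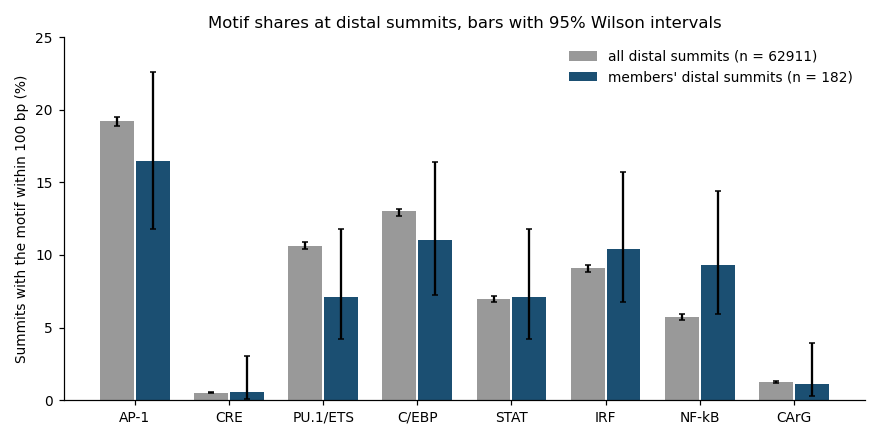
Share of distal summits with each motif within 100 bp (vertical axis, %), for all 62911 distal summits (grey) and the 182 in the windows of the 10 genes (blue), with 95% Wilson intervals. The AP-1 bars stand at 19.2% and 16.5%, and the NF-kB bars at 5.73% and 9.34%.

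Of the other motifs at distal summits, that of NF-kB, the factor that Toll-like receptors activate beside AP-1, was the one whose interval excluded the catalog value. It was present at 17 of 182 distal summits (9.34%, 5.91 to 14.4), against 5.73% of all distal summits, and by subfamily at 10 of 67 in the Fos group, 1 of 39 in the Jun group and 6 of 76 in the last group. This is 1 of 8 motifs compared, with no test, and the summits of a window share their locus. An AP-1 and an NF-kB motif at the same distal summit, a combination looked at after the values were seen, occurred at 5 of 182 (2.75%, 1.18 to 6.27), against 0.99%. They were found at Fos, Fosb, Fosl2 and Batf3, with scores of 1568 at Fos (49816 bp upstream), 911 at Fosb, 266 and 234 at Fosl2 and 315 at Batf3, the last 3 below the lower quartile of all summits, 486. For PU.1/ETS (GAGGAAGT) the share was 7.14% (4.22 to 11.8) against 10.6%, for C/EBP (TTGCNNAA) 11% (7.23 to 16.4) against 13%, for STAT (TTCNNNGAA) 7.14% (4.22 to 11.8) against 6.99% and for IRF (GAAANNGAA) 10.4% (6.79 to 15.7) against 9.07%. The full CRE was present at 1 of 249 summits, 28780 bp upstream of Fosb, against 0.938% of all summits. The CRE of Jund shown above lay inside its start site peak (chr8:70698401-70699082) but not wholly within 100 bp of a summit.

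The CArG box is the site of serum response factor (SRF), which is known to act on the promoters of Fos and other immediate early genes. The RefSeq promoters, which end 250 bases upstream, held it in 0 of 9 cases, against 1.63% of all promoters. In the longer stretch from 1000 bp before to 100 bp after the most upstream start, searched after the data were seen, it was found in 2 of 10 genes, against 5.9% of all protein-coding genes. It began 309 bp upstream of the start at Fos, inside the start site peak (chr12:85473474-85473984) but over 100 bp from a summit, and 266 bp upstream at Fosb. Within 100 bp of a summit it was present at 5 of 249 summits (2.01%, 0.861 to 4.61), against 1.15% of all summits. They lay at Fosb 332 bp upstream, at Junb 2082 bp downstream, at Fos 12227 bp downstream, at Batf3 22299 bp upstream, and in the window of Fosl1 at the start of Mus81. Among the 67 summits within 1000 bp of a coding start it was present at 3 (4.48%, 1.53 to 12.4), against 0.901% of all such summits. That interval excludes the catalog value, but the difference was not tested. The Fosb, Junb and Fos sites are shown as 201 bases around the summit, with the CArG box in capitals. At Junb and Fos it begins 3 bp from the summit, with scores of 1734 and 1644, and at Fosb 66 bp from the summit, with a score of 1036. The Junb summit also held the NF-kB and STAT motifs.
Fosb, minus strand, chr7:19310283-19310483: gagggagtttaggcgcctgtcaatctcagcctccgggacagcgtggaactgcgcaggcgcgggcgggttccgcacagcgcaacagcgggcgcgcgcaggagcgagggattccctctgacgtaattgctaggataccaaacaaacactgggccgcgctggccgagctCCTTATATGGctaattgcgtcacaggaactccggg
Junb, minus strand, chr8:84976536-84976736: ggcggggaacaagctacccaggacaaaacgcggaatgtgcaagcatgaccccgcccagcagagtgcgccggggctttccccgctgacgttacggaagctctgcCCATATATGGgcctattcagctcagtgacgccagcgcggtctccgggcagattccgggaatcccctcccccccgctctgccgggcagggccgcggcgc
Fos, plus strand, chr12:85486017-85486217: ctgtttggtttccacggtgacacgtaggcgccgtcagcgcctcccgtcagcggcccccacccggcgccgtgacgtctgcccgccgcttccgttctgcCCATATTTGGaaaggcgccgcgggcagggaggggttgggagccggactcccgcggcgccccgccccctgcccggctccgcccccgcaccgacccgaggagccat

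Lists of related genes place the 10 genes among their partners and regulators. Of 24 other bZIP genes (ATF, CREB, PAR and C/EBP-related factors), 21 had a start site peak (87.5%, 69 to 95.7), and those without were Creb3l1, Creb3l3 and Creb3l4, CREB-like factors of the endoplasmic reticulum. Their median was 8.5 extended regions and a start score of 1851. The most regions were at Creb5 (28), Atf6 (17) and Jdp2 (14), the last encoding a partner that represses AP-1. Of 28 signalling genes upstream of AP-1 (MAP kinases and their activators, ETS and MEF2 factors and Srf), 26 had a start site peak (92.9%, 77.4 to 98), all except Mapk10 and Mapk12. Their median was 9 regions and a start score of 1792, and the most regions were at Mapkapk2 (26), Map3k5 (24) and Elk3 (16). The share with an open start was thus near that of the 10 genes in both lists, and its intervals overlap, while the median of 13 regions was higher for the 10 genes. The 10 macrophage marker genes had a median of 11.5 regions (range 6 to 17), and 9 of them had 8 or more, close to the values of the 10 genes. These differences were not tested.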

How the data were processed

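ATAC-seq libraries were sequenced by the authors as single-end reads. According to the study's methods they were trimmed with BBDuk and Trimmomatic 0.39, aligned to mm10 with ShortStack and filtered with SAMtools 1.9, and peaks were called with MACS2 2.2.6 with duplicates kept, versions per the submitters' processing notes. Peaks kept had to pass a strict q-value cut and to overlap between replicates. A start without a listed peak is thus not shown to be closed. The deposited lists hold positions and, for summits, a score given by the authors, whose scale is not stated. A shift towards the Tn5 cut site is not named, so a summit can lie beside the cut maximum, and kept duplicates can raise a score.

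Positions are on mm10, counted from 1. GENCODE M21 and GRCm38.p6 were used, in which all entries lay inside the 21 chromosomes. Start sites are all annotated transcript starts of a gene. A region or peak was counted in a window when it overlapped by 1 base, a summit when it lay inside. Motifs were matched exactly on both strands. Wilson intervals (scipy 1.17.1, Python 3.11.15) cover counting error only, and depth is unknown. Interval and motif functions were tested on simulated data. The text names the 10 genes with their best start and distal summits, and of the other lists the genes without a start peak and the 3 with the most regions, and any other gene or site was chosen after its values were seen. The members, lists and limits were chosen with earlier results of these data known. No list had a column per library, so stimuli, time points and replicates were not compared. Alternatives covered distances, windows, start sites and motifs.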

Additional observations from a re-analysis of the deposited data

How the results depend on the processing

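No paired analysis was possible because no list has a column per library, and for the same reason no replicate could be left out. Of 32 alternatives, 17 left the value within the limits set for it (counts within 1.5 times, the motif share inside its interval, scores equal). The number of genes with a start site peak ranged from 8 to 10. The median number of extended regions was 5.5 within 20 kb and 25.5 within 100 kb, next to 2 and 9 over all protein-coding genes, and 8 for regions with a summit at or above the median score, 23.5 for reference peaks and 25 for summits, since wider windows and finer units hold more. The median start score was 1812 within 500 bp, 1825 within 2500 bp and 1488 at the most upstream start alone, where Atf3 has no summit and the best summit of Fosb scores 1036. The AP-1 share was 10.4% within 50 bp, next to 11.6% of all summits. It was 11.2% for summits at or above the median score, next to 16.1%, and 18.2% for the best summit of each region, next to 17.3%. The median distal score was 685 over 2500 bp from a coding start, 732 in windows of 20 kb and 654 in windows of 100 kb. The full CRE was found in 2 genes with the longer promoter (3.09% of all protein-coding genes), the CRE core in 5 and the Jun form in 1, the last pair of searches added after the data were seen, as were start sites of protein-coding transcripts alone. The scores come from 1 pooled list, so their error is not known.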

Other observations

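The distal summits in the windows had a median GC content of 51.7% within 100 bp, against 48.3% over all distal summits. At least 50% of the bases were repeats, as marked in the genome sequence, at 3.85% of them, against 7.62%. These differences were not tested. The windows of Fos and Batf lie on the same chromosome 112779 bp apart, and those of Batf3 and Atf3 20192 bp apart, so no summit was counted for 2 genes.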
